A study of Mus musculus with 4 samples.

Results

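The COUP-TF genes *Nr2f1* (ENSMUSG00000069171), *Nr2f2* (ENSMUSG00000030551), and *Nr2f6* (ENSMUSG00000002393) are 3 of the 31053 gene identifiers counted in single cells of the mouse XY gonad. They were chosen by their levels in these same libraries, across the in vivo stages and the ESC-derived cells. Their levels are therefore a description, with no test. Each gene was found in the files by its symbol and held by 1 identifier. All 3 lie on the minus strand of GRCm38, with *Nr2f1* on chromosome 13 (78188973 to 78199757), *Nr2f2* on chromosome 7 (70351944 to 70366735), and *Nr2f6* on chromosome 8 (71374123 to 71381960).

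Each condition is 1 library. The in vivo libraries are gonads of XY embryos of the ICR strain at E10.5, E11.5, and E12.5, from which 3837, 2101, and 2764 cells were retained. Per the study's methods, the E10.5 tissue included mesenchyme on the dorsal side, and the mesonephros was taken off at E11.5 and E12.5. The ESC-derived library is D6, with 2285 retained cells of the XY line N271S9C. The labels give this line as C57BL/6J with the transgenes Nr5a1-hCD27a and Sox9-2A-CGFP. The paper writes the first as *Nr5a1*-hCD271 and gives a cross of C57BL/6J with 129X1/SvJ. The line was brought to epiblast-like cells and aggregated with CHIR99021, BMP4, and EGF. It then received retinoic acid, SHH, PD0325901, EGF, and BMP4 from D2, and BMP4, FGF9, and the Wnt inhibitor IWR1 from D4. D6 cells were enriched on magnetic columns for the *Nr5a1*-hCD271 surface tag, which depends on *Nr5a1* activity. Per the paper, this raised the share of tagged cells, which stayed the smaller part of the sample. D6 cells were made into libraries with a later 10x kit (v3) than the in vivo cells (v2). Kit, strain, culture, and enrichment all differ between D6 and the in vivo libraries, and they cannot be told apart from the condition.

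The median depth was 4607 unique molecular identifiers (UMIs) a cell at D6 and 8167 to 11926 in vivo. Levels are in CPM, a gene's UMIs per-million of all UMIs in a group of cells. Shares are cells with at least 1 UMI, and where libraries are compared they are also given after cells were thinned at random to 2000 UMIs. Cells with fewer UMIs were left out of the thinned shares, namely 209 at E11.5, 16 at D6, 6 at E10.5, and 0 at E12.5. Intervals are exact 95% intervals. They cover counting error only, since no library has a replicate. Pairs of in vivo libraries shared 7 to 15 cell barcodes, and D6 shared 0 with any of them.

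COUP-TFs are orphan members of the nuclear receptor family. They bind repeats of the AGGTCA half-site as homodimers or with a retinoid X receptor, and they often repress through corepressors. *Nr2f1* (COUP-TFI) is best known from the patterning of the cortex, the eye, and the neural crest. *Nr2f2* (COUP-TFII) specifies venous endothelium and is carried by mesenchyme of many organs. In the fetal testis it marks the interstitium, including Leydig cell progenitors, and it is low in Sertoli cells. *Nr2f6* (EAR2) is the more distant relative and is widely expressed. Retinoic acid and hedgehog signals are known inducers of COUP-TF genes.

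The sequences upstream of the RefSeq start sites are shown so that the region around each start can be read beside the levels. The 250 bases before the *Nr2f2* start (GRCm38.p6, chr7:70366747-70366996, minus strand) have 50.0% GC and 1 CpG. The 242 bases before the *Nr2f6* start that lie outside exons (chr8:71381961-71382202, minus strand) belong to a 250-base window with 82.4% GC and 42 CpGs. Sequences are written 5′ to 3′, and capitals mark a CCAAT box in the first and a GC box (GGGCGG) in the second, on either strand.
Nr2f2 promoter: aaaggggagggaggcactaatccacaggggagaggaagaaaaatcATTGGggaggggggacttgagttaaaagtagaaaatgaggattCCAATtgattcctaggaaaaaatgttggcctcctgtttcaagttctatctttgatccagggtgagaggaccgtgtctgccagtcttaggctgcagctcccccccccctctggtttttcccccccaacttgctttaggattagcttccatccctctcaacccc
Nr2f6 promoter: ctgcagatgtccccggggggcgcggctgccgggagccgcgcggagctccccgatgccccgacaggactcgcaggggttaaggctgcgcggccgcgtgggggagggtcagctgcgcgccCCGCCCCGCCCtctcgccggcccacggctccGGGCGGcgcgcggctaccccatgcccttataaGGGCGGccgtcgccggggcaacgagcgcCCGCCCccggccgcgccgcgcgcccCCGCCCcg
The median over 32851 mouse promoters of this length was 52.4% GC and 6 CpGs. The *Nr2f2* window held 2 CCAAT matches, a motif found in 33.9% of promoters. The *Nr2f6* window held 7 GC box matches, some overlapping, of which 6 are wholly shown, and 32.7% of promoters held at least 1. Both windows before the *Nr2f1* starts lie within exons of other *Nr2f1* transcripts and are not shown, and the more CpG-rich of them had 72.0% GC and 22 CpGs. The half-site AGGTCA, the NR5A1 site CAAGGTCA, the GLI core GGGTGGTC, and the SOX core ATTGTT were found in none of these windows on either strand. They were found in 14.0%, 1.33%, 0.703%, and 9.42% of promoters, and the absence of the letters says nothing about binding.

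*Nr2f2* was the most abundant of the 3 genes in every library, and *Nr2f1* varied the most between libraries. *Nr2f2* stood at 1052 CPM at D6 (1034 to 1071), whereas E10.5 gave 153 (148.5 to 157), E11.5 gave 171 (166 to 176.5), and E12.5 gave 183 (178 to 187). The in vivo values lay close together, and the D6 value stood apart from all of them. *Nr2f1* stood at 389 CPM at D6 (378 to 401), whereas E10.5 gave 81.1 (78.1 to 84.3), E11.5 gave 17.1 (15.5 to 18.8), and E12.5 gave 7.05 (6.19 to 8.0). Its order was thus D6 first, then E10.5, then E11.5, then E12.5, with no overlap of the intervals. *Nr2f6* stood at 49.4 CPM at D6 (45.5 to 53.5), whereas E10.5 gave 57.3 (54.7 to 60.0), E11.5 gave 44.2 (41.6 to 46.9), and E12.5 gave 45.6 (43.4 to 48.0). E11.5 and E12.5, and E12.5 and D6, did not differ in *Nr2f6* beyond counting error.

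**Figure D1:**
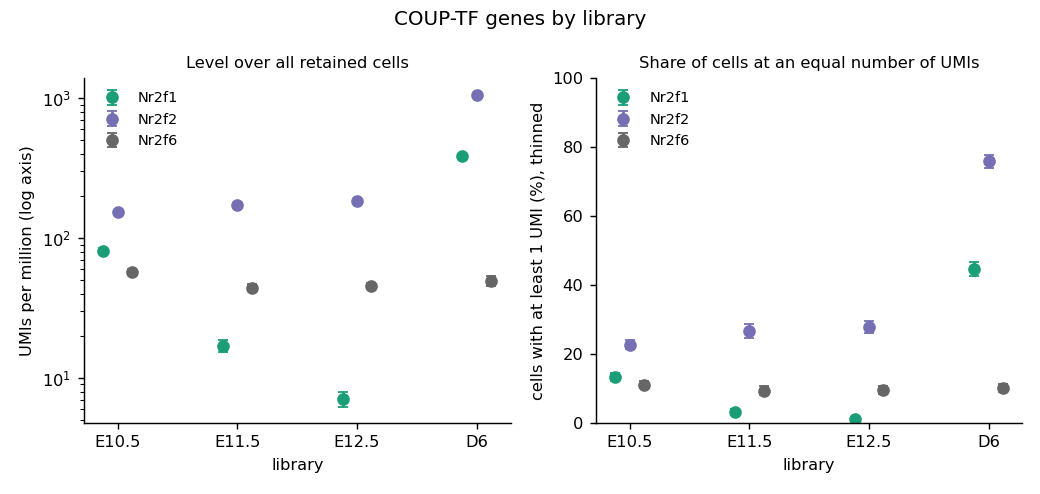
Left, CPM of each COUP-TF gene over all retained cells of a library, on a log axis. Right, share of cells with at least 1 UMI after thinning to 2000 UMIs a cell. Points are 1 library each and bars are exact 95% intervals of counting error. *Nr2f2* and *Nr2f1* are highest at D6 (1052 and 389 CPM), and *Nr2f6* stays between 44.2 and 57.3.

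The share of cells followed the same order once depth was made equal. After thinning, 75.9% of D6 cells held an *Nr2f2* UMI, against 22.7%, 26.7%, and 27.7% of cells in the E10.5, E11.5, and E12.5 libraries. Without thinning the shares were 87.4% at D6 and 55.2%, 55.3%, and 57.6% in vivo. For *Nr2f1*, the thinned share was 44.7% at D6, with 13.3% for E10.5, 3.22% for E11.5, and 0.977% for E12.5. Unthinned, the shares in this order were 61.8%, 39.4%, 13.2%, and 7.53%. For *Nr2f6*, the unthinned share was lowest at D6, at 21.0% against 35.3% to 41.2% in vivo, whereas the thinned shares were 10.1% at D6 and 9.20% to 10.96% in vivo. The lower unthinned share of *Nr2f6* at D6 thus goes with the lower depth of that library.

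Single cells differed in how many UMIs they held. At D6, 17.7% of cells held 10 or more *Nr2f2* UMIs and the highest held 35, although this library was the shallowest. In vivo, E10.5, E11.5, and E12.5 gave shares of 0.469%, 3.19%, and 3.58%. The *Nr2f2* median was 5 UMIs a cell at D6 and 1 in each in vivo library. Among E11.5 and E12.5 cells, 44.7% and 42.4% held no *Nr2f2* UMI while 90% of cells held up to 6, so that cells without the gene stood beside cells rich in it. *Nr2f1* reached 19 UMIs in a cell at D6 and 4 at E12.5. *Nr2f6* never exceeded 7 UMIs in a cell, and cells with 1 UMI were the largest positive class in each library.

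**Figure D2:**
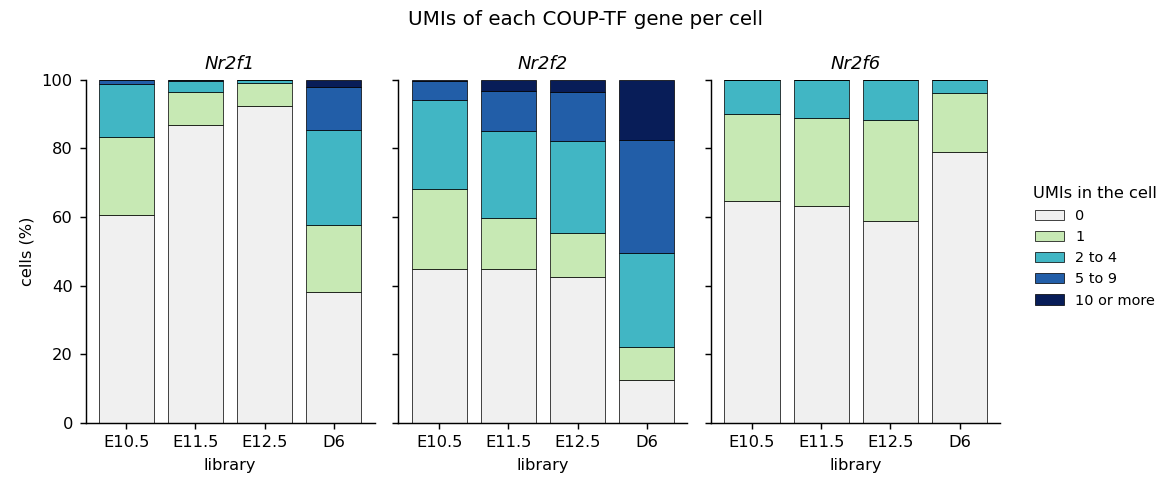
Stacked bars give the percent of retained cells of each library (x axis) by the number of UMIs of the gene in the cell, without thinning. At D6, 17.7% of cells hold 10 or more *Nr2f2* UMIs, and 92.5% of E12.5 cells hold no *Nr2f1* UMI.

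To see which cells carried the genes, cells were gated by at least 1 UMI of a marker, namely *Sox9* or *Amh* (Sertoli cells), *Pdgfra* (interstitial cells), *Upk3b* (coelomic epithelium), *Cyp11a1* (steroidogenic cells), and *Cdh5* (endothelium). The gates were checked with other markers of the same types. In the *Sox9* or *Amh* gate, 9 of 10 other Sertoli markers were at least 2-fold higher than in the remaining cells of the E11.5 and the E12.5 library, and 7 of 10 at D6. At E10.5 the count was 0 of 10, and *Pax1*, *Pax9*, and *Meox1*, markers of the sclerotome, were higher in it. The E10.5 gate is therefore called by its genes only. At D6, *Meox1* and *Pax8* were at least 2-fold higher in the gate as well. The paper ties *Pax8* to supporting-like lineage cells and cites a report that these express *Sox9*. D6 cells with 1 *Sox9* UMI held 1086 CPM of *Nr2f2*, near the 1069 of cells with none. The same 2 groups held 234 and 208 CPM at E11.5, and 252 and 210 at E12.5. The gate is thus not read as Sertoli cells alone at E11.5, E12.5, or D6. The *Pdgfra* gate had 8 of 8 interstitial markers at E12.5 but 2 of 8 at D6, and the earlier stages gave 4 of 8 (E11.5) and 0 of 8 (E10.5). At D6 the summed level of these 8 markers was 1633 CPM in the gate and 942 outside it. The *Upk3b* gate had 4 to 5 of 6 coelomic markers, and the *Cdh5* gate had 7 of 7 endothelial markers, in every library. The *Cyp11a1* gate had 6 of 7 steroidogenic markers at D6, with 5 of 12 Sertoli markers (*Amh*, *Ptgds*, *Inha*, *Fgf9*, and *Mro*). At E12.5 it had 5 of 7, but also 11 of 12 Sertoli markers, and 79.5% of its 44 cells were positive for *Sox9* or *Amh* as well. At E11.5 it had 2 of 7 steroidogenic and 10 of 12 Sertoli markers, and 72.8% of its 103 cells were positive for *Sox9* or *Amh*. The in vivo *Cyp11a1* gates are therefore called by their gene only. At E10.5 only 2 cells held *Cyp11a1*, so no level is given.

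*Nr2f2* was highest in the *Pdgfra* gate at E12.5 and at D6. At E12.5 the order was 330.1 CPM in the *Pdgfra* gate (320.2 to 340.3), 273 in *Upk3b* (256 to 290.5), 126 in *Sox9* or *Amh* (119.5 to 132), 103 in *Cdh5* (83.2 to 127), and 53.9 in *Cyp11a1* (36.1 to 77.4). Neighbors in this order differed beyond counting error, except *Sox9* or *Amh* and *Cdh5*, whose log2 of the plain ratio was 0.29 (−0.02 to 0.61). Here and below, intervals of ratios between gates of a library treat the gates as independent. The gates share cells (113 of the 257 *Upk3b* cells at E12.5 were also *Pdgfra* positive), so these intervals are approximate. In the *Pdgfra* gate 88.9% of the 1103 cells held the gene, and in the *Sox9* or *Amh* gate 40.6% of the 994 cells. At E11.5 *Upk3b* (242) and *Pdgfra* (238) did not differ beyond counting error, with a log2 ratio of *Pdgfra* to *Upk3b* of −0.02 (−0.13 to 0.09). They were followed by *Cdh5* (117), *Sox9* or *Amh* (115.5), and *Cyp11a1* (48.4). At E10.5 the levels were 204 in *Upk3b*, 175 in *Pdgfra*, 163 in *Sox9* or *Amh*, and 53.5 in *Cdh5*. The *Pdgfra* to *Sox9* or *Amh* ratio of *Nr2f2* was 1.07-fold at E10.5 (0.990 to 1.16), while E11.5 gave 2.06-fold (1.92 to 2.22) and E12.5 gave 2.62-fold (2.47 to 2.79). With these gates it was larger at each later stage. The level in the *Pdgfra* gate was higher at E12.5 than at E10.5, and that in the *Sox9* or *Amh* gate was lower at E11.5 than at E10.5. At E10.5 these gates had 0 of 8 interstitial and 0 of 10 Sertoli markers, so a change in what they hold cannot be told apart from stage. With *Amh* alone, given below, the ratios at E11.5 and E12.5 were nearly equal.

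At D6, *Nr2f2* was high in each of the gates. It stood at 1315 CPM in the *Pdgfra* gate (1276 to 1355), 906 in *Sox9* or *Amh* (864 to 950), 772 in *Upk3b* (725 to 822), 481 in *Cdh5* (382 to 598), and 328 in *Cyp11a1* (304 to 354). Neighbors in this order differed beyond counting error. The *Pdgfra* to *Sox9* or *Amh* ratio was 1.45-fold (1.37 to 1.54), its interval below those of E11.5 and E12.5. The lowest gate at D6 was level with the highest at E12.5, the *Cyp11a1* gate at D6 holding 328 CPM and the *Pdgfra* gate at E12.5 holding 330.1. The 1060 D6 cells in none of the gates held 1262 CPM of *Nr2f2* (1230 to 1294), which was 12.1-fold the 104 of the 801 such cells at E12.5 (11.4 to 12.9). At E12.5, germ cell markers summed to 2923 CPM outside the *Pdgfra* gate and 2713 outside the *Sox9* or *Amh* gate. Inside these gates the sums were 105.5 and 300. At D6 the sum outside the *Pdgfra* gate was 19.5. The part of germ cells in the 12.1-fold ratio was not tested.

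*Nr2f1* did not follow this order. At E10.5 it stood at 104 CPM in the *Sox9* or *Amh* gate (96.9 to 112), 94.6 in *Pdgfra* (88.1 to 101), 83.4 in *Upk3b* (73.1 to 94.7), and 17.8 in *Cdh5* (8.56 to 32.8). Neighbors among the first 3 did not differ beyond counting error, although *Sox9* or *Amh* exceeded *Upk3b* (log2 0.32, 0.11 to 0.54), and the endothelial gate stood below them. At E12.5 it was 13.2 in *Upk3b* (9.74 to 17.5), 10.7 in *Pdgfra* (8.94 to 12.6), 5.76 in *Sox9* or *Amh* (4.47 to 7.30), 3.36 in *Cdh5* (3 UMIs in 59 cells), and 1.86 in *Cyp11a1* (1 UMI in 44 cells). Of the neighbors in this order, only *Pdgfra* and *Sox9* or *Amh* differed beyond counting error (log2 0.89, 0.46 to 1.33), and in thinned cells this log2 ratio was −0.15. At D6 it was 413.5 in *Cyp11a1* (386 to 443), 368 in *Pdgfra* (347.5 to 390), 337 in *Sox9* or *Amh* (312 to 364), 154 in *Cdh5* (101 to 226), and 83.1 in *Upk3b* (68.0 to 101). The *Pdgfra* and *Sox9* or *Amh* gates did not differ beyond counting error at D6, and the other neighbors did. The *Cyp11a1* gate, lowest for *Nr2f2* at D6, was highest for *Nr2f1*. The *Upk3b* gate was lowest for *Nr2f1* and ranked between *Sox9* or *Amh* and *Cdh5* for *Nr2f2*. In *Cyp11a1*-positive D6 cells 71.1% held *Nr2f1* and 63.4% held *Nr2f2*. *Nr2f6* stayed between 40.9 and 67.4 CPM in each of these gates with at least 20 cells, in all 4 libraries.

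**Figure D3:**
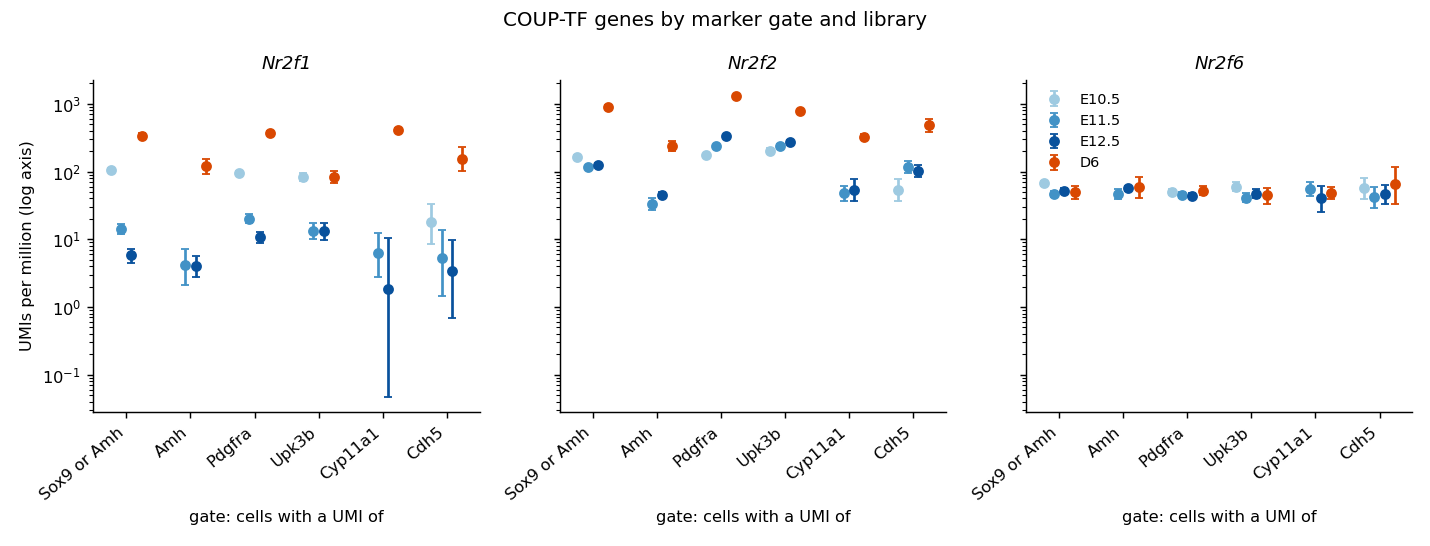
CPM (log axis) of each COUP-TF gene in cells with at least 1 UMI of the gate gene on the x axis, with *Amh* alone also shown, for 4 libraries (colors). Bars are exact 95% intervals of counting error, and gates under 20 cells are left out (*Amh* and *Cyp11a1* at E10.5). D6 is highest for *Nr2f2* in every gate, *Nr2f1* at E10.5 and D6 meets in the *Upk3b* gate (83.4 and 83.1), and *Nr2f6* shows little spread.

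A gate of 1 UMI mixes cell types, and 29.1% of the *Sox9* or *Amh* cells at E12.5 were also *Pdgfra* positive. *Sox9* is in addition carried by cells outside the Sertoli lineage, so *Amh*, made by Sertoli cells, was taken alone. *Nr2f2* then stood at 45.6 CPM in 641 cells at E12.5 (40.9 to 50.6), 32.9 in 219 cells at E11.5 (26.6 to 40.2), and 239 in 82 cells at D6 (200 to 283.5). The *Pdgfra* gate was 7.24-fold above the *Amh* gate at E12.5 (6.49 to 8.10), 7.23-fold at E11.5 (5.89 to 8.97), and 5.50-fold at D6 (4.63 to 6.59). The ratio thus depended on the Sertoli gate taken, more so at D6 (5.50-fold against 1.45-fold) than at E12.5 (7.24-fold against 2.62-fold). In the *Amh* gate, 10 of 11 other Sertoli markers were at least 2-fold higher at E11.5, E12.5, and D6. At D6, *Amh* was also higher in the *Cyp11a1* gate. Steroidogenic markers summed to 663 CPM inside the D6 *Amh* gate and 607 outside it. The part of steroidogenic cells in the D6 *Amh* values was not tested. Within cells of 1 gate only, *Nr2f2* stood at 46.6 in *Sox9* or *Amh* and 367 in *Pdgfra* at E12.5, and at 978 and 1387 at D6.

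The number of marker UMIs in a cell gave a finer scale. At E12.5, *Nr2f2* stood at 222.5 CPM in cells with no *Amh* UMI, 172 in the 102 cells with 1, 19.1 in the 117 cells with 2 to 4, and 17.7 in the 422 cells with 5 or more (14.2 to 21.8). At D6 the levels in the same bins were 1092, 425, 193, and 119 (76.2 to 177), in 2203, 29, 25, and 28 cells. Both libraries thus ran from high to low *Nr2f2* as *Amh* went up, and D6 stayed above E12.5 in each bin. *Nr2f1* at D6 ran likewise, from 402 CPM without *Amh* to 218, 96.5, and 54.5 (27.2 to 97.5) with it. For *Pdgfra*, *Nr2f2* at E12.5 was 96.1 in cells without it and 322 in cells with 1 UMI, and it did not go further up with more (337 and 342.5). At D6 the same step was from 955.5 to 1306.

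*Upk3b* and *Cyp11a1* separated *Nr2f1* from *Nr2f2* at D6. *Nr2f1* stood at 426 CPM in D6 cells without *Upk3b*, 152 with 1 UMI, 52.0 with 2 to 4, and 35.3 (16.9 to 65.0) in the 38 cells with 5 or more. *Nr2f2* over the same bins was 1085, 873, 730.0, and 696 (602 to 800.2). With *Cyp11a1* the pattern was turned around. *Nr2f2* went from 1198 CPM without it to 565, 258, and 223 (193 to 256) in the 125 cells with 5 or more. *Nr2f1* over these bins was 384, 345, 454, and 432 (390.1 to 477). At E12.5, *Nr2f1* was 6.32 without *Upk3b* and 17.4 (10.9 to 26.4) in the 78 cells with 5 or more, the opposite order to D6. The earlier stages did not show this rise. The same bins gave 17.8 and 17.3 (10.4 to 26.9) at E11.5, and 80.9 and 59.2 (35.7 to 92.5) at E10.5.

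**Figure D4:**
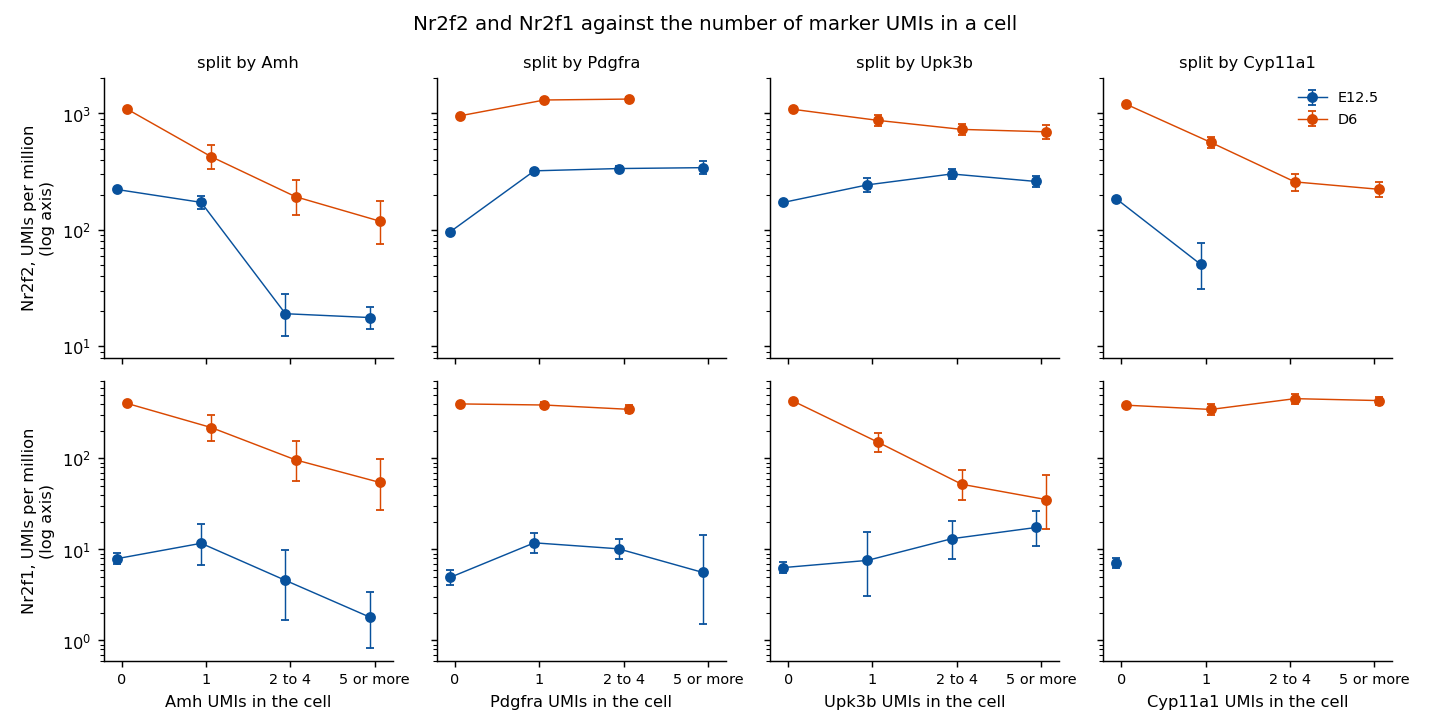
CPM (log axes) of *Nr2f2* (top) and *Nr2f1* (bottom) in cells grouped by their UMIs of *Amh*, *Pdgfra*, *Upk3b*, or *Cyp11a1* (x axes), at E12.5 and D6. Bars are exact 95% intervals of counting error, and groups under 20 cells or with 0 UMIs are left out. *Nr2f2* goes down with *Amh* in both libraries, to 17.7 at E12.5 and 119 at D6, and *Nr2f1* at D6 goes down with *Upk3b*, to 35.3, but not with *Cyp11a1*.

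*Nr5a1* is the nuclear receptor gene that marks somatic cells of the genital ridge and drives the tag used to enrich D6 cells. With a cut at 1 UMI, it split *Nr2f2* most at D6. *Nr2f2* stood at 506 CPM in the 664 *Nr5a1*-positive D6 cells (485 to 528) and 1347 in the 1621 negative cells (1321 to 1373). The corresponding levels were 167 and 190.0 at E12.5, 119 and 207 in the E11.5 library, and 134 and 153 in that of E10.5. With 5 or more *Nr5a1* UMIs, *Nr2f2* was 212 at D6 (185 to 241), 37.2 at E11.5 (28.0 to 48.5), and 32.5 at E12.5 (18.2 to 53.6). In this bin *Nr2f2* was thus far below the negative cells in all of these libraries. Germ cell markers summed to 2692 CPM in the negative and 102.7 in the positive cells at E12.5, and to 18.0 in the negative cells at D6. Their part in the split at 1 UMI was not tested. *Nr2f1* did not go down in that way at D6, with 421 without *Nr5a1*, 256 with 1 UMI, 309 with 2 to 4, and 477 (437 to 520.4) with 5 or more. In vivo, *Nr2f1* in *Nr5a1*-positive cells was 114 CPM in the 72 cells of E10.5, 11.4 in the 730 of E11.5, and 4.19 in the 883 of E12.5.

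Both genes were often found in the same D6 cell. After thinning, 36.4% of D6 cells (34.4 to 38.4) held *Nr2f1* and *Nr2f2*, and the product of the single shares was 33.9%. A further 39.6% held *Nr2f2* alone, 8.33% held *Nr2f1* alone, and 15.7% held neither. In the D6 *Cyp11a1* gate, cells with *Nr2f1* alone were more frequent (29.9%) than cells with *Nr2f2* alone (19.8%) or with both (18.1%). In the D6 *Upk3b* gate, 62.4% held *Nr2f2* alone and 2.69% held *Nr2f1* alone. At E12.5, 9 of 2764 cells held both, a share of 0.326% (0.149 to 0.617), and the product of the single shares was 0.271%. At E10.5 the share was 3.97% (3.37 to 4.64) and the product 3.01%.

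Germ cells, which should hold little *Nr2f1* or *Nr2f2* RNA of their own, were taken as a comparison level for these genes. The level that free RNA can leave in a droplet was not measured directly. Among cells with at least 2 UMIs of germ cell markers, *Nr2f2* stood at 16.2 CPM in 493 cells at E12.5 (13.7 to 19.0) and 47.2 in 247 cells at E11.5 (40.5 to 54.7). Their median depths were 18337 and 16432 UMIs, and the shares with an *Nr2f2* UMI were 8.92% and 19.0%. The level of *Nr2f2* in E12.5 cells with 5 or more *Amh* UMIs (17.7) was within counting error of the germ cell level. Whether it is background was not tested. At E11.5 the *Amh* gate (32.9, 26.65 to 40.18, share 19.6%) lay below the germ cell level, and the *Cyp11a1* gate (48.4, 37.0 to 62.1) overlapped it. E11.5 cells with 5 or more *Amh* UMIs held 13.2 CPM (4.83 to 28.7). The germ cell level at E11.5 was thus not the lowest in that library. *Nr2f1* in these germ cells was 4.27 at E11.5 (2.44 to 6.93) and 1.97 at E12.5 (1.17 to 3.11). The *Cyp11a1* and *Cdh5* values of *Nr2f1* at both stages overlapped these levels, as did the *Amh* gate at E11.5 (4.11). Whether these values are background was not tested. The *Amh* gate at E12.5 stood at 4.05 (2.75 to 5.75), and its cells with 5 or more *Amh* UMIs at 1.81 (0.827 to 3.43). At D6 only 18 cells passed the same rule, and they held 478 CPM of *Nr2f2*, so no comparison level is given for D6.

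The direct comparison of D6 with the in vivo stages was made gate by gate. Over all cells, *Nr2f1* at D6 was 55.2-fold E12.5 (48.5 to 63.1), 22.8-fold E11.5 (20.7 to 25.3), and 4.80-fold E10.5 (4.57 to 5.03). *Nr2f2* was 5.75-fold E12.5 (5.58 to 5.93), 6.14-fold E11.5 (5.93 to 6.36), and 6.89-fold E10.5 (6.66 to 7.12). *Nr2f6* was 1.08-fold E12.5 (0.982 to 1.19), 1.12-fold E11.5 (1.01 to 1.24), and 0.862-fold E10.5 (0.784 to 0.946). For comparison, 25.4% of the 9611 genes with at least 10 CPM at D6 or E12.5 were at least 2-fold higher at D6, and 7.39% were at least 2-fold lower. These were 2439 and 710 genes, and under scaling by the trimmed mean of M values (TMM) in place of total UMIs they were 1289 and 1754, so that lower genes were then the more frequent. Higher *Nr2f1* and *Nr2f2* are thus 2 of 2439 such genes. Since these 3 genes were chosen on this contrast, nothing is read from their count. TMM scaling lowers every plain D6 to E12.5 log2 ratio over all cells by 0.47. On the log2(CPM + 1) scale the shift is smaller for genes at low levels, as for *Rarb*, which moves from 3.17 to 2.82. On that scale, TMM scaling moves the median of all genes from 0.31 to −0.20. *Nr2f1* and *Nr2f2* remain higher at D6 under it (log2 5.31 and 2.05), whereas *Nr2f6* turns from 0.11 to −0.36, so no direction is given for *Nr2f6*.

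Within gates, the D6 to E12.5 ratio of *Nr2f2* was 7.20-fold in *Sox9* or *Amh* (6.72 to 7.72), 5.25-fold in *Amh* alone (4.26 to 6.43), 3.98-fold in *Pdgfra* (3.82 to 4.16), 2.83-fold in *Upk3b* (2.59 to 3.09), 6.10-fold in *Cyp11a1* (4.203 to 9.17), and 4.66-fold in *Cdh5* (3.42 to 6.35). All 6 were above 1, and the coelomic gate gave the smallest. The gates share cells, and *Amh* cells lie within the *Sox9* or *Amh* gate. No share of all genes was computed within gates, so nothing is read from this count. Of the *Cyp11a1* cells, 35 of 44 at E12.5 were also *Sox9* or *Amh* positive, and 38 of 298 at D6. Among *Nr5a1*-positive cells the ratio was 3.03-fold (2.84 to 3.23) and among negative cells 7.09-fold (6.84 to 7.34). The negative cells held 2692 CPM of germ cell markers at E12.5 and 18.0 at D6, whose part in the latter ratio was not tested. The D6 to E12.5 ratio of *Nr2f1* was 58.6-fold in *Sox9* or *Amh* (45.6 to 76.3), 34.5-fold in *Pdgfra* (28.9 to 41.6), and 6.29-fold in *Upk3b* (4.43 to 9.05). Against E10.5 it was 3.24-fold, 3.89-fold, and 0.997-fold (0.784 to 1.26) in the same gates. The summed *Nr2f1* level of the *Upk3b* gate thus did not differ between D6 and E10.5 beyond counting error. Its parts went opposite ways. Cells with 1 *Upk3b* UMI held 152 CPM at D6 (117 to 192) and 85.2 at E10.5 (70.3 to 102). Cells with 2 to 4 held 52.0 at D6 (34.6 to 75.2) and 87.8 at E10.5 (71.8 to 106). Cells with 5 or more held 35.3 at D6 (16.9 to 65.0) and 59.2 at E10.5 (35.7 to 92.5). In the *Cyp11a1* gate, where E12.5 held 1 *Nr2f1* UMI, the D6 to E12.5 ratio of 222.5 has an interval from 39.8 to 8800. Within the in vivo series, *Nr2f1* at E10.5 was 18.1-fold E12.5 in *Sox9* or *Amh* (14.1 to 23.5), 8.87-fold in *Pdgfra* (7.38 to 10.7), and 6.31-fold in *Upk3b* (4.61 to 8.80). The E10.5 library includes tissue dorsal to the gonad, whose part in these ratios was not tested.

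Overlapping transcripts on the other strand bear on these counts only if reads were counted without strand. The antisense gene *A830082K12Rik* overlaps the 5′ end of *Nr2f1* on the plus strand, and its levels were 34.9 CPM at D6, then 15.3 (E10.5), 4.39 (E11.5), and 2.28 (E12.5), in the same order as *Nr2f1*. *Ocel1* on the plus strand overlaps *Nr2f6*, and *B130024G19Rik*, which is not among the counted identifiers, overlaps *Nr2f2*. Whether the counting used strand is not given in the sources used here, and without it reads of a gene and its antisense partner cannot be told apart.

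Other nuclear receptor genes were examined for the setting of the COUP-TF genes. Of 45 others, 16 had at least 10 CPM at D6 or E12.5. Of these 16, 11 were at least 2-fold higher at D6 (7 under TMM) and 0 were at least 2-fold lower, against 25.4% and 7.39% of all 9611 genes (1289 and 1754 genes under TMM), with a median log2 ratio of 1.38 against 0.31 over all genes. The ratios in this and the next paragraph are on the log2(CPM + 1) scale, which gives 5.599 for *Nr2f1*, 2.52 for *Nr2f2*, and 0.11 for *Nr2f6*. The retinoic acid receptor *Rarb*, itself a retinoic acid target, stood at 16.4 CPM at D6 and 0.936 at E12.5 (log2 3.17), and at 26.0 at E10.5. The estrogen receptor *Esr1* (log2 2.56) and *Rora* (log2 2.05) followed, and *Nr5a1* was at 161 and 45.0 (log2 1.82). *Nr2f1* lay above each of them in ratio and *Nr2f2* between *Esr1* and *Rora*.

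**Figure D5:**
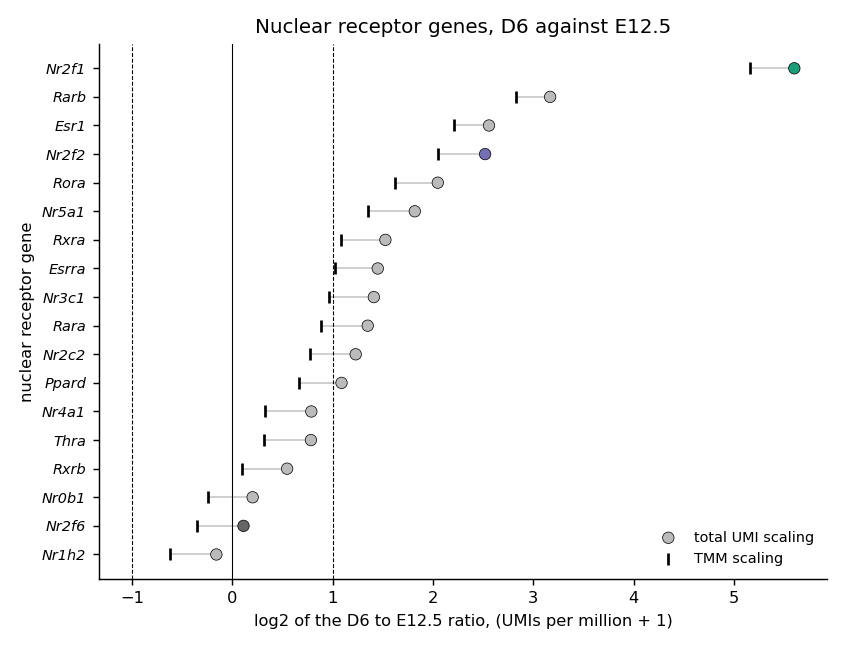
Difference in log2(CPM + 1) between D6 and E12.5 for 18 nuclear receptor genes with at least 10 CPM in either library. Circles use total UMIs and ticks TMM scaling. Dashed lines mark 2-fold. *Nr2f1* (5.599) is highest, *Nr2f2* (2.52) lies below *Rarb* and *Esr1*, and *Nr2f6* (0.11) is at −0.35 under TMM.

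The counts of the next lists are to be read beside the same shares of all genes, 25.4% higher and 7.39% lower (1289 and 1754 genes under TMM). For all genes the minimum of 10 CPM was applied again after TMM scaling, but not for the lists. The TMM counts of these lists and of the nuclear receptors thus have no matching share of all genes beside them. In the retinoid pathway, 7 of 13 tested genes were at least 2-fold higher at D6 and 1 was lower (4 and 1 under TMM). The retinal dehydrogenase *Aldh1a3* was higher (33.2 CPM against 2.72, log2 3.20), as were *Dhrs3* (log2 1.99) and *Rxra*, a partner of COUP-TFs (23.7 against 7.58, log2 1.53). *Aldh1a1*, which also makes retinoic acid, was lower (33.7 against 196, log2 −2.51). Of 11 hedgehog pathway genes, 5 were higher and 2 lower (2 and 2 under TMM). The transcription factor *Gli3* (log2 2.08) and the coreceptors *Gas1* (log2 1.84), *Boc* (log2 1.41), and *Cdon* (log2 1.13) were higher. The Sertoli cell ligand *Dhh* (4.28 against 56.3 CPM, log2 −3.44) and the hedgehog-binding inhibitor *Hhip* (log2 −2.67) were lower. *Ptch1*, a response gene of the pathway, was at 75.9 and 73.9 CPM. Of 13 cofactor genes, 9 were higher and 0 lower (5 and 2 under TMM). They included *Zfpm2*, which encodes the COUP-TF partner FOG2 (102 against 13.8, log2 2.79), *Zfpm1* (log2 2.75), and the coactivator *Ncoa3* (log2 1.89). Of 10 tested genes linked to COUP-TFs in vessels, heart, or gonad, 6 were higher and 0 lower (5 and 0 under TMM), including *Gata6* (336 against 38.3, log2 3.10), *Angpt1* (log2 2.42), *Nrp1* (log2 2.34), and the Notch ligand *Jag1* (log2 2.30). Markers of some cell types differed as well, and their part was not tested. Of 10 tested Sertoli markers 8 were lower at D6 and 0 higher, all 6 germ cell markers and all 4 tested erythroid markers were lower, and all 6 tested steroidogenic markers were higher. Of 9 interstitial markers 2 were higher and 0 lower, and of 6 tested coelomic markers 1 was higher and 2 lower. Of 5 tested endothelial markers 0 were higher and 0 lower.

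The genes whose levels ran most like each member were sought among 5440 genes with at least 50 CPM in at least 1 of 17 points. A point is a gate of 1 library with at least 50 cells, 4 of them from D6. The gates share cells and libraries, so the correlations of log2(CPM + 10) are descriptive. For *Nr2f1* the 5 highest were *Hoxb3* (Pearson's r = 0.962), the noncoding *Hotairm1* of the HoxA cluster (0.959), *Pcdh7* (0.957), the limb and trunk mesenchyme factor *Prrx1* (0.952), and *Hoxb5* (0.9503). *Hoxb3* stood at 58.1 CPM at D6, then 11.2 (E10.5), 0.853 (E11.5), and 0.322 (E12.5). *Prrx1* in this order stood at 73.7, 49.8, 3.21, and 0.878. For *Nr2f2* they were *Col1a1*, a fibrillar collagen of mesenchyme (0.975), *Tmem263* (0.961), the netrin receptor *Unc5c* (0.958), *Rbms3* (0.958), and *Gps2* (0.957). *Col1a1* stood at 708 CPM at D6 and 39.8 to 48.1 in vivo. For *Nr2f6* the highest were weaker, with *Igdcc3* (0.773), *Azin1* (0.714), *Tmed4* (0.707), *Sdhaf1* (0.704), and *Osr1* (0.696). Between *Nr2f1* and *Nr2f2* r was 0.703 over the 17 points and 0.275 over the 13 in vivo points, so most of their likeness lay in the contrast with D6. For *Hoxb3* with *Nr2f1* and *Col1a1* with *Nr2f2*, r over the in vivo points alone was 0.917 and 0.949. Ranked over the in vivo points alone, the 5 highest held 0 of the 5 genes named for *Nr2f1*, 2 of those for *Nr2f2* (*Col1a1* and *Tmem263*), and 2 of those for *Nr2f6* (*Sdhaf1* and *Azin1*).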

How the data were processed

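Single-cell RNA-seq was measured in 4 XY libraries, 1 for each condition, so no test was possible and no p-value is given. The authors deposited UMI counts per gene and cell as sparse matrices with lists of gene identifiers and barcodes. Per the labels they used Cell Ranger 3.0.2 on mm10, whereas the matrix headers name 6.0.0. Whole numbers were checked in the matrices.

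Cells were retained by the study's limits on detected genes and mitochondrial UMIs, which were more than 1000 and fewer than 4000 genes and less than 10% for E10.5. The limits for E11.5 were 500, 5000, and 20%, those for E12.5 2000, 5000, and 8%, and those for D6 1000, 4000, and 12%. Retained cells held 32508523, 24625441, 34173977, and 11906360 UMIs, out of 40199985, 32519441, 42242194, and 13965107. Doublets were called with Scrublet (scanpy 1.11.5) as the highest scores at an expected 0.8% per 1000 cells, gave 2.01% to 4.27% of cells, and were left in except in an alternative. UMIs were summed over the cells of a library or gate and divided by their total. Intervals are exact at 95% (Poisson for levels, Clopper-Pearson for shares, conditional binomial for ratios), and PCR duplicates are removed by the UMIs. Ratios were given for gates of at least 20 cells, and those between gates of a library treat the gates as independent although they share cells. The step across all genes used log2(CPM + 1) and a minimum of 10 CPM, with TMM factors from edgeR 4.0.16 in an alternative, and was tested on simulated data. Positions are from GENCODE on GRCm38, with 99.86% of identifiers found, and promoters are from RefSeq on GRCm38.p6, where all 3 genes were found. Genes named are the 3 members, the gate genes, *Nr5a1*, list genes past 2-fold (at most 4 per direction and list), and the 5 most alike genes per member. *Ptch1*, *A830082K12Rik*, *Ocel1*, *B130024G19Rik*, and the 3 sclerotome markers are named outside that rule, after their values were seen. In these lists, 2 genes that the rule names are counted but not reported here by name or drawn. The members, gates, and gene lists were chosen with earlier results of these data known.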

Additional observations from a re-analysis of the deposited data

Results flagged for a closer look

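Every pair of the 5 gates was screened for each of the 3 genes, in libraries where both gates held at least 20 cells. For 3 pairs of gates, a COUP-TF gene was ordered one way in vivo and the other way at D6. In these, the interval of each library was clear of 0. How many such pairs a screen of this size gives from counting error was not tested. *Nr2f1* was higher in the *Pdgfra* gate than in the *Cyp11a1* gate in vivo (log2 ratio 1.66 for E11.5, 0.65 to 2.90, and 2.52 for E12.5, 0.02 to 7.83) but not at D6 (−0.17, −0.30 to −0.04). *Nr2f1* was higher in the *Upk3b* gate than in the *Cyp11a1* gate in vivo (1.08 for E11.5, 0.01 to 2.36, and 2.83 for E12.5, 0.28 to 8.16) but not at D6 (−2.31, −2.62 to −2.02). *Nr2f2* in the *Sox9* or *Amh* gate over the *Upk3b* gate had log2 ratios below 0 in vivo (−0.32 for E10.5, −1.06 for E11.5, −1.12 for E12.5) but not at D6 (0.23). This order at D6 depended on the Sertoli gate taken. D6 cells with 1, 2 to 4, and 5 or more *Amh* UMIs held 425, 193, and 119 CPM of *Nr2f2*. Those were below the 873, 730, and 696 of D6 cells with as many *Upk3b* UMIs. Each condition is 1 library, so the differences between libraries were not tested. The E12.5 values with the *Cyp11a1* gate rest on 1 *Nr2f1* UMI in 44 cells, and at E11.5 on 8 UMIs in 103 cells. Both levels were within counting error of the level in cells with germ cell markers, so their in vivo sizes are uncertain. At E12.5, 79.5% of the *Cyp11a1* cells were also *Sox9* or *Amh* positive, against 12.8% at D6.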

How the results depend on the processing

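No paired analysis was possible because each condition is 1 library and no result comes from a test. Of 784 values under alternatives, 594 moved by less than the counting interval (a count of genes by less than 1.5 times) and 190 by more. Of the 784 values 47 changed sign, all with a log2 ratio under 1 in size, the largest being *Nr2f1* in the *Pdgfra* over the *Sox9* or *Amh* gate at E12.5 (0.89, −0.15 thinned). Leaving out doublets moved none of the 101 values it touched. The *Nr2f1* D6 to E12.5 log2 ratio (5.79) was 5.31 under TMM, 6.37 in thinned cells, and 6.30 in *Nr5a1*-positive cells. That of *Nr2f2* (2.52) was 2.45 with the same cell limits for every library, 2.41 with no limits, 2.05 under TMM, 2.44 as a mean over cells, and 1.60 in *Nr5a1*-positive cells. That of *Nr2f6* (0.11) was −0.36 under TMM. The *Nr2f2* log2 ratio of the *Pdgfra* to the *Sox9* or *Amh* gate at E12.5 (1.39) was 1.16 with no cell limits, 1.62 thinned, 2.47 with gates of 2 UMIs, 2.98 in cells of 1 gate only, and 2.86 with *Amh* alone. At D6 (0.54) it was 1.22 with gates of 2 UMIs and 2.46 with *Amh* alone. Genes at least 2-fold higher and lower at D6 than E12.5 (2439 and 710) numbered 1354 and 448 with a pseudocount of 10, 899 and 357 with a minimum of 50, 3662 and 1230 with no minimum, and 1289 and 1754 under TMM. The causes were not tested. With 1 library per condition, the spread between embryos, cultures, or library preparations is not in any interval, and depth limits *Nr2f1* most in small gates, such as *Cdh5* at E12.5 (3 UMIs in 59 cells).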
